A study of Homo sapiens with 12 samples.

Results

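The heat shock chaperone genes were examined for N4-acetylcytidine (ac4C), a cytidine modification that the acetyltransferase NAT10 writes on RNA. The 10 genes, taken by name from 20052 protein-coding genes, were HSP90AA1, HSP90AB1, HSPA1A, HSPA1B, HSPA5, HSPA8, HSPA9, HSPD1, HSPE1 and HSF1. A peak was given to a gene when its midpoint lay in the gene's span on GRCh38 and on the gene's strand. The libraries came from SW620, an established human colorectal cancer cell line grown in L15 medium with fetal bovine serum, and total RNA was immunoprecipitated for ac4C (acRIP-seq). The 3 control libraries carried a control shRNA (shControl, genotype given as WT), and the 3 knockdown libraries carried an shRNA against NAT10 (shNAT10, genotype given as NAT10 knockdown). Both lines had been made with lentivirus and selected with puromycin. The labels did not say which NAT10 shRNA was used or whether the libraries of a group came from separate cultures, so the p-values below measure only the spread between these libraries, which may be technical. The comparison asked where the chaperone transcripts held listed ac4C peaks, and whether the peaks differed between control cells and cells with the NAT10 shRNA.

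Chaperones bind unfolded or partly folded proteins and, using ATP, help them to fold, keep them from aggregating or hand them to degradation. HSF1 is the transcription factor that switches on many chaperone genes under heat and other stresses that unfold proteins, and in unstressed cells it is held inactive by the chaperones themselves. Colorectal and other tumour cells commonly rely on high chaperone levels to buffer an altered proteome.

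The files held 17877 to 28752 peaks per library, and 61.3% of protein-coding genes (12291 of 20052) held a peak in 1 or more libraries, while 29.8% (5973) did so in every library. The longest list was that of knockdown replicate 1. Peaks were compared by their score percentile, the percent of a library's peaks with a lower score, with ties at their middle rank, because the scale of the deposited score was not given. Between 7.61% and 13.7% of a list shared the single score 3100, so the strongest peaks were mostly tied. NAT10 itself had 1, 0 and 2 listed peaks in the control libraries and 2, 0 and 1 in the knockdown libraries, which does not measure its mRNA and checks no label. Of 9 colorectal epithelial markers, 5 had a peak in all 6 libraries (EPCAM, CDH1, KRT8, VIL1 and CDX2), 1 in some (CDH17) and 3 in none (KRT18, KRT20 and CDX1). Of the markers of other cell types reported here, COL1A1 had a peak in 3 libraries and GFAP in 1, and PTPRC, CD3E, PECAM1, COL1A2 and ALB had none in any library. No read depth could be had from these lists, and input libraries were not analysed here. A missing peak therefore does not show missing ac4C, and in bulk RNA a change in modified transcript cannot be told apart from a change in the amount of that transcript or in the number of cells that carry it.

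Of the 10 chaperone genes, 6 held a peak in some library and 4 held none in any of the 6. The cytosolic stress-inducible chaperones HSP90AA1, HSPA1A and HSPA1B, the mitochondrial Hsp70 HSPA9 and the regulator HSF1 held a peak in all 6 libraries, and HSPA5, the Hsp70 of the endoplasmic reticulum, in 4 of 6. The 4 genes without a peak were HSP90AB1 and HSPA8, the constitutive cytosolic Hsp90 and Hsp70, and HSPD1 and HSPE1, the mitochondrial chaperonin and its lid, which are neighbouring genes transcribed away from each other. All 6 libraries together listed 41 chaperone peaks in 9 places, and 6 of the 9 places, with 32 of the 41 peaks, had their midpoint within 1000 bases of the gene's outermost RefSeq 5′ end. Without HSF1, whose strand was read from its peaks, this was 26 of 35 peaks. Among all peaks in genes with a known strand the share was 20.2% to 26.1% per library, given as background only, since the chaperone peaks count 1 place up to 6 times. That background was not matched for gene length, and HSPA1A and HSPA1B span only 2400 and 2517 bases. In 5 genes (HSP90AA1, HSPA1A, HSPA1B, HSPA5 and HSF1) a peak began within 50 bases of the outermost RefSeq 5′ end or before it. HSP90AA1 was at the limit of 50 bases, and HSPA5 had such a peak in only 2 libraries. The share of all genes that meet this rule is not given here, so the count has no background to be read against.

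The stress-inducible pair HSPA1A and HSPA1B, which encode nearly the same Hsp70 protein and lie side by side on chromosome 6, had 5′ peaks that began just before the RefSeq transcription start, and the sequences there show what the peaks covered. The stretches run 5′ to 3′ from 150 bases before the RefSeq start (GRCh38.p14) to 30 bases after it, on the plus strand, at chr6:31815393-31815572 for HSPA1A and chr6:31827588-31827767 for HSPA1B. Capitals mark the bases inside the peak of control replicate 1. They were 109 bases with 25 C letters for HSPA1A and 33 bases with 8 C letters for HSPA1B. Only the last 30 bases of each stretch lie at or after the RefSeq start. The 25 of HSPA1A therefore include C letters outside the RefSeq transcript, and 25 and 8 do not compare the cytidines of the transcripts. For HSPA5 the first 30 bases of its 5′ peak are shown, chr9:125241301-125241330 on the minus strand, all inside the peak and with 6 cytidines.
HSPA1A: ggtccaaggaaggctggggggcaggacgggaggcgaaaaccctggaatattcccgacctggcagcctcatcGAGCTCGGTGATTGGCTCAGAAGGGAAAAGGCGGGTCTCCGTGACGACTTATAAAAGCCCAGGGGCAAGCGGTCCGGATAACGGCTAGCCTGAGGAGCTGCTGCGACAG
HSPA1B: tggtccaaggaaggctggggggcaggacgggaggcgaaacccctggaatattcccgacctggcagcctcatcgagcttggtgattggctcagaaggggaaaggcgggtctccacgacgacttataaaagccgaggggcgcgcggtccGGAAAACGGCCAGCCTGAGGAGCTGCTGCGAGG
HSPA5: ACAGCACAGACAGATTGACCTATTGGGGTG

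The capitals in HSPA1A start 79 bases before the RefSeq start and those in HSPA1B 3 bases before it, in promoters that shared 168 of 181 aligned positions (92.8%) over the stretch shown. Over the transcribed bases of the RefSeq windows the identity was 42 of 51 positions (82.4%). Reads from either copy could have been placed on the other, so the peaks of these 2 genes are uncertain as to the gene they belong to. The lower-case part of both stretches holds the palindrome GAATATTC, at positions -106 to -99 from the start in HSPA1A and -105 to -98 in HSPA1B, which is the GAANNTTC form of the heat shock element that HSF1 binds, upstream of both peaks. Either GAANNTTC or TTCNNGAA (each its own reverse complement, so the same on both strands, and able to overlap) occurred in the 300-base windows of 7 of the 9 chaperone genes with a window, against 14.9% of 15842 genes. HSPA5 and HSPE1 were the 2 without a match, and no window was given for HSF1. In HSP90AA1 the matches were only in the window of an inner start, 52705 bases downstream of the outermost start near its peaks. In HSPA9 the match lay at positions -4 to 3, across the start itself. A match is a string of letters and not a bound site.

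**Figure D1:**
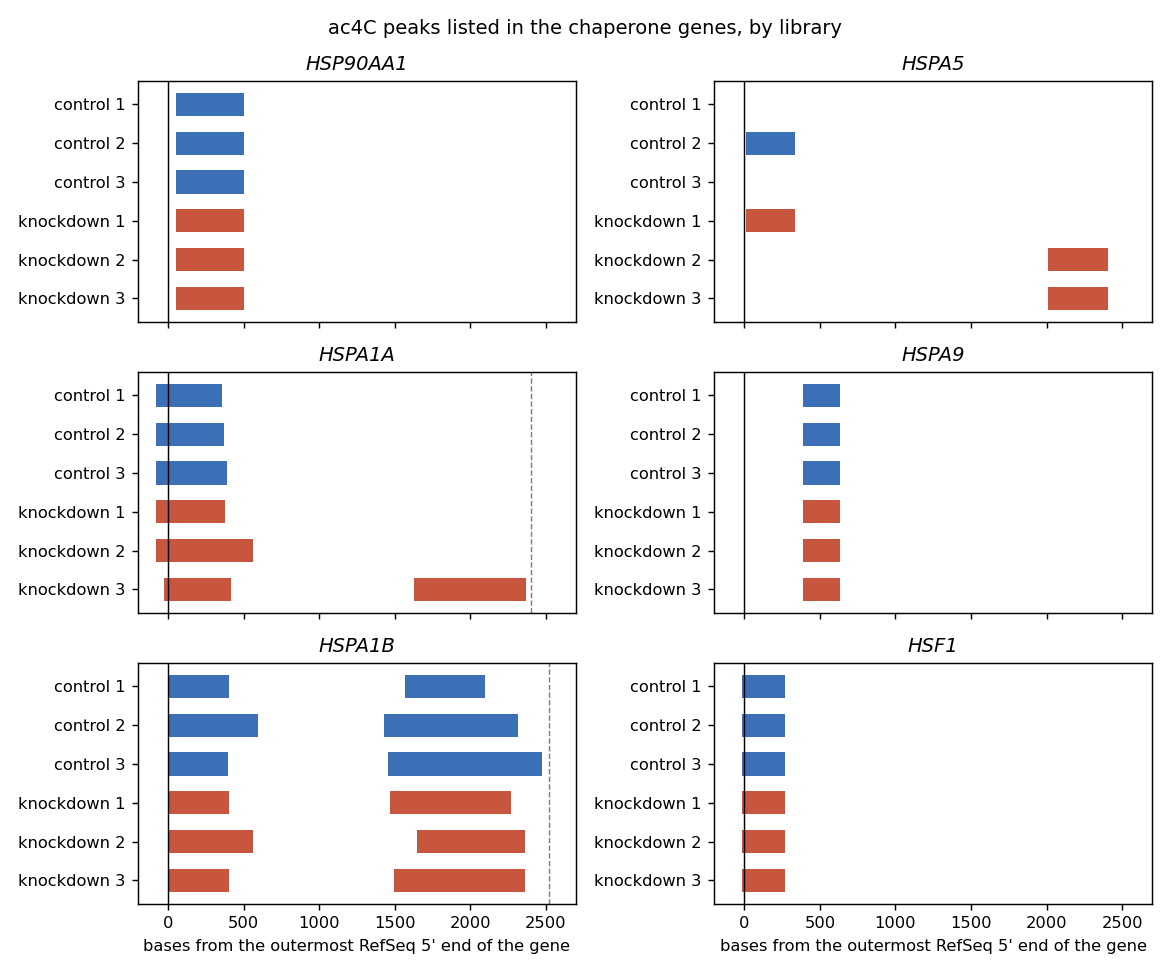
Peaks listed in the 6 chaperone genes with any peak, 1 row per library (blue, control; red, knockdown), as bars from first to last base. The x axis is the distance in bases from the outermost RefSeq 5′ end (solid line), and the dashed line is the 3′ end where it lies in the window. HSP90AA1, HSPA9 and HSF1 have the same bar in all 6 libraries, HSPA1B has 2 bars in every library, and HSPA5 switches between 2 places.

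HSP90AA1 encodes the stress-inducible cytosolic Hsp90, which matures kinases and steroid receptors, and it held 1 peak in each of the 6 libraries, at chr14:102139250-102139699 on the minus strand. The peak had the same first and last base in every library, 450 bases long and 50 to 499 bases into the gene from its outermost start. RefSeq gives a second, inner start 52705 bases downstream, and none of the 6 peaks lay at or beyond it. The score percentiles were 34.8, 36.7 and 31.2 in the control libraries and 54.8, 32.4 and 63.0 in the knockdown libraries. Knockdown replicate 2 sat among the controls and the other 2 knockdown libraries above them, so the groups overlapped. The mean was 34.2 ± 2.80 (SD, n = 3) in controls and 50.1 ± 15.8 (SD, n = 3) in knockdown libraries, a difference of 15.8 percentile points with a two-sided exact permutation p = 0.3 (the form of every permutation p here). It was 24.7 without knockdown replicate 2 and 9.37 without knockdown replicate 3. Its paralogue HSP90AB1, the constitutive Hsp90 at chr6:44246194-44253883 on the plus strand, had no peak in any library.

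HSPA1A, at chr6:31815543-31817942, held 1 peak in every library except knockdown replicate 3, which had 2. The 5′ peak was present in all 6 and spanned 437 to 641 bases. It began 79 bases before the RefSeq start in 5 libraries and 28 bases before it in knockdown replicate 3. Its score percentiles were 74.7, 99.7 and 60.0 in controls and 77.5, 68.9 and 59.6 in knockdown libraries. Control replicate 2 was the highest of the 6, and the other 5 libraries of both groups were interleaved. The means were 78.1 ± 20.1 (SD, n = 3) and 68.7 ± 8.95 (SD, n = 3), and the difference of -9.43 points had an exact permutation p = 0.6. Without control replicate 2 it was 1.37. The additional peak of knockdown replicate 3 lay at 1626 to 2369 bases, near the 3′ end, with a percentile of 21.5, and it was listed in no other library. Bases covered by peaks were 437, 450 and 466 in controls and 455, 641 and 1188 in knockdown libraries, which overlapped (exact permutation p = 0.2). The difference was 310 bases, and 97.0 bases without knockdown replicate 3.

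HSPA1B, at chr6:31827738-31830254, held 2 peaks in every library, and was the only chaperone gene with a pair of peaks in all 6. The 5′ peak began 3 bases before the RefSeq start in every library and ran for 400 to 601 bases. Its percentiles were 80.5, 39.5 and 73.2 in controls and 74.3, 82.1 and 75.6 in knockdown libraries. Here control replicate 2 was the lowest of the 6, the reverse of its place in HSPA1A, and the groups overlapped. The means were 64.4 ± 21.9 (SD, n = 3) and 77.3 ± 4.20 (SD, n = 3), a difference of 13.0 points with an exact permutation p = 0.4. Without control replicate 2 it was 0.512, and without control replicate 1 it was 21.0. The 3′ peak had other coordinates in each library, within 1430 to 2474 bases of the start, and spanned 533 to 1019 bases. Its percentiles were 51.7, 52.8 and 80.8 in controls and 80.9, 63.9 and 76.2 in knockdown libraries, with the third control among the knockdown values. The means were 61.7 ± 16.5 (SD, n = 3) and 73.7 ± 8.79 (SD, n = 3), and the difference of 11.9 points had an exact permutation p = 0.3. It was 6.90, 7.43 and 21.4 without control replicates 1, 2 and 3 in turn. HSPA8, the constitutive cytosolic Hsp70 at chr11:123057489-123062462 on the minus strand, had no peak in any library.

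HSPA5 encodes BiP, the Hsp70 of the endoplasmic reticulum and a regulator of its unfolded protein response, and lies at chr9:125234853-125241343 on the minus strand. It was the only 1 of the 6 genes that some libraries did not list, with 0, 1 and 0 peaks in controls and 1, 1 and 1 in knockdown libraries. That is 1 control library of 3 and every knockdown library (Fisher's exact p = 0.4, two-sided). The peak was not in 1 place. Control replicate 2 and knockdown replicate 1 listed a 5′ peak of 326 bases, 13 to 338 bases into the gene, at the tied score of 3100. Knockdown replicates 2 and 3 listed a different peak of 391 bases, 2012 to 2402 bases into the gene, with percentiles of 16.3 and 58.3. The place with a 3100 score was therefore listed once in each group, and the downstream place was listed in 2 of 3 knockdown libraries and no control library (Fisher's exact p = 0.4). The 2 libraries with the 5′ peak were also the 2 with the most peaks in all, 22619 and 28752, and the part of list length in its detection was not tested.

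HSPA9, or mortalin, is the Hsp70 of the mitochondrial matrix and pulls proteins in through the inner membrane. It held 1 peak in every library, at chr5:138574771-138575009 on the minus strand, with the same 239 bases each time, 392 to 630 bases into the gene. Its percentiles were 83.0, 94.8 and 85.2 in controls and 92.7, 99.7 and 93.2 in knockdown libraries. It ranked high in both groups, and control replicate 2 lay among the knockdown libraries. The means were 87.7 ± 6.30 (SD, n = 3) and 95.2 ± 3.91 (SD, n = 3), a difference of 7.56 points with an exact permutation p = 0.3. In 3 of the 6 libraries the score was the tied 3100, where the percentile depends on how many peaks share that score. With ties at their lowest rank the difference was 4.76. The chaperonin genes HSPD1 (chr2:197486584-197500274, minus strand) and HSPE1 (chr2:197500379-197503449, plus strand), whose products fold proteins in the same compartment, had no peak in any library.

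HSF1, at 144291604-144314720 on chromosome 8, held 1 peak in every library, from 144291591 to 144291874, the same 284 bases each time. The gene tables used here gave no strand for HSF1, and all 6 peaks were listed on the plus strand, so its lower coordinate was read as the 5′ end and the peak as running from 13 bases before it to 270 bases into the gene. The score was 3100 in all 6 libraries, which put the peak among the strongest of every list but allows no ranking between groups. Its percentiles of 96.0, 94.8 and 93.2 in controls and 92.7, 94.0 and 93.2 in knockdown libraries count only how many other peaks held that score.

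**Figure D2:**
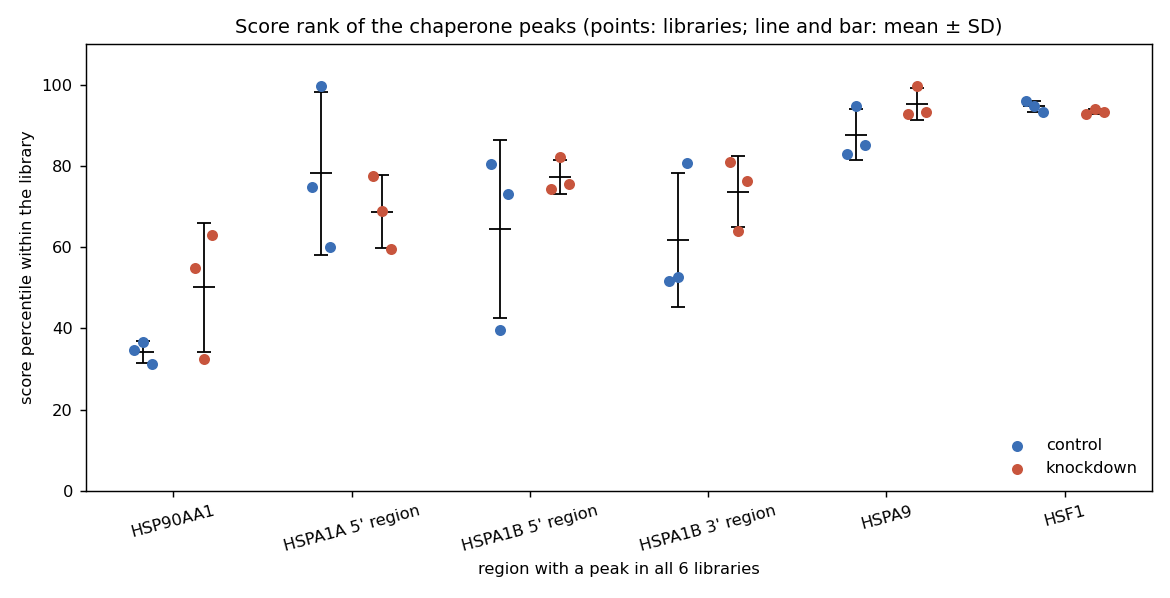
Score percentile within the library (y axis, 0 to 100) of the 6 chaperone places with a peak in all 6 libraries, with 1 point per library (blue, control; red, knockdown) and the mean ± SD. Control and knockdown points overlap in every place, HSF1 and HSPA9 have the highest means, and HSP90AA1 the lowest, with control points between 31.2 and 36.7.

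Between the groups, 0 of the 6 chaperone genes with a peak was listed throughout one group and nowhere in the second, against 0.700% of all genes with a peak. The numbers of peaks overlapped between groups in all 6 of these genes, while in 2.25% of all genes with a peak they did not. Of the 5 chaperone genes with a peak in all 6 libraries, 0 had highest percentiles that did not overlap, against 9.39% of all such genes. By place, 0 of the 9 chaperone places was listed throughout one group and nowhere in the second, against 1.16% of all places, and 0 of the 6 found everywhere had percentiles that did not overlap, against 11.0%. HSF1 is among these 5 genes and 6 places, yet its score was the tied 3100 in all 6 libraries. The percentiles of that tied score overlapped between groups, so HSF1 could not have been called by percentile. With so few members these counts set them neither apart from nor level with the other genes.

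Taken over all 10 genes, the libraries listed 6, 7 and 6 chaperone peaks in controls and 7, 7 and 8 in knockdown libraries. The groups shared the value 7, and the means were 6.33 ± 0.577 and 7.33 ± 0.577 (SD, n = 3 each), with an exact permutation p = 0.3. The groups came apart, with a difference of 1.33 and the smallest exact permutation p of 0.1, when any overlap of 1 base with a gene counted or control replicate 2 was left out. With any overlap, HSF1 was the only one of the 6 genes whose difference in peak number changed, from 0 to 0.333. The peak added there lay on the opposite strand at the end of HSF1, for which no strand was given. As a share of all peaks of the library the chaperone genes took 0.0329%, 0.0309% and 0.0299% in controls and 0.0243%, 0.0392% and 0.0420% in knockdown libraries. The long list of knockdown replicate 1 gave the lowest share and the other 2 knockdown libraries the highest, with an exact permutation p = 0.5. The difference of 0.00392 points became 0.00933 without knockdown replicate 1, 0.00192 without knockdown replicate 2 and 0.000503 without knockdown replicate 3. A comparison of 3 with 3 libraries cannot give a p below 0.1, and after Benjamini-Hochberg adjustment over all genes the smallest permutation value for any gene was 1 for peak number and 0.671 for the highest percentile, and 0.669 for the percentile of any place, so no call could be made by test for any gene.

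The chaperones work with a wider set of partners, and a list of 108 co-chaperones and other chaperones, without the 10 genes above, was read the same way. Of these, 93 (86.1%) held a peak in some library and 56 (51.9%) in all 6. Among the 10 chaperone genes 6 and 5 did so, and among all protein-coding genes 61.3% and 29.8% did. These shares are descriptions, with no test, and the lists were not matched for expression or gene length. The 2 other members of the Hsp90 family, HSP90B1 of the endoplasmic reticulum and TRAP1 of mitochondria, and 7 of 8 further chaperones of the endoplasmic reticulum had peaks in all 6 libraries. The cytosolic chaperonin TRiC with prefoldin had peaks in all 6 libraries for 4 of 14 genes, and TCP1, CCT2, CCT6A, PFDN4 and PFDN5 had none. All 11 further Hsp70 genes held a peak in some library and 4 in all 6. Of 31 Hsp40 genes, which deliver clients to Hsp70, 29 held a peak and 20 did so in all 6. Of 5 further heat shock factors and their regulators, only HSF2 and HSF2BP held any.

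**Figure D3:**
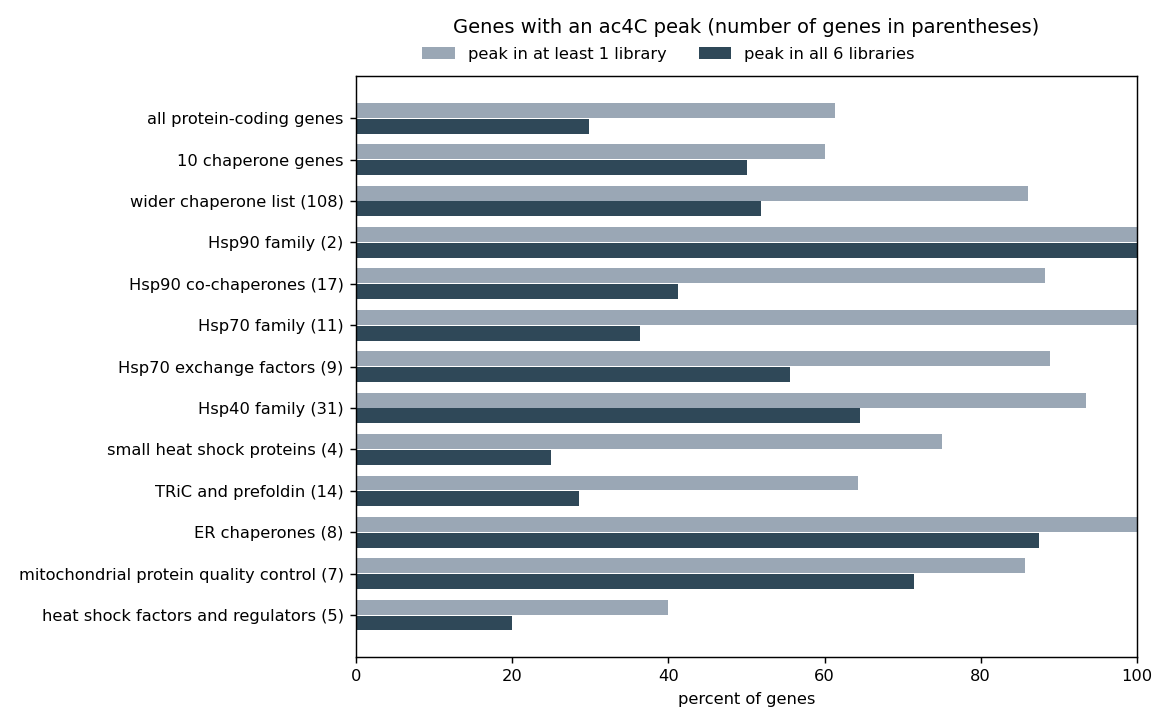
Percent of genes (x axis) with an ac4C peak in at least 1 library (light) and in all 6 (dark), for all protein-coding genes, the 10 chaperone genes, the wider list and its classes, with the number of genes in parentheses. Of the 10 genes 6 and 5 are counted, while all genes stand at 61.3% and 29.8% and the wider list at 86.1% and 51.9%.

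The genes with the most listed peaks in each class of the wider list are given by library, controls first. SIL1, the exchange factor of HSPA5, had 6, 3 and 7 peaks in controls and 6 in each knockdown library, and HSPBP1, an exchange factor of the cytosolic Hsp70s, 5 in every library. HSPA4, a larger relative of Hsp70, had 5, 6 and 4 in controls and 5, 4 and 4 in knockdown libraries, whereas HSPA12B had 0, 3 and 3 and then 4, 0 and 3. These counts overlapped between the groups in each of the 4 genes. Among the Hsp40 genes DNAJC11 had 4, 5 and 5 peaks against 6, 5 and 5, and DNAJC21 had 4, 5 and 4 against 5 in each knockdown library. Among the Hsp90 co-chaperones NUDC had 3, 4 and 4 against 4, 4 and 5, and FKBP5, an immunophilin of steroid receptor complexes, 4, 2 and 2 against 4 in each. The mitochondrial protease genes AFG3L2 and LONP1 had 5, 3 and 4 against 3, 3 and 4, and 3, 6 and 3 against 6, 2 and 1. All of these again overlapped, sharing at least 1 value between groups. TRAP1 had 2 peaks in every library but knockdown replicate 1, which had 4, and HSP90B1 had 1, 1 and 1 against 2, 2 and 1. PFDN2, CANX and SERPINH1 had the same number in all 6 libraries, 2, 3 and 3, as did CCT4, CCT7 and PFDN1 with 1 each. HSF2BP, a germline protein that binds HSF2, had 4, 5 and 5 against 6, 4 and 4, HSF2 had 0, 1 and 1 against 1 in each, and the small heat shock proteins HSPB6 and CRYAB had 1, 2 and 1 against 1 in each, and 1, 0 and 0 against 1, 1 and 0.

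In the wider list 0 genes were listed throughout one group and nowhere in the second. The peak numbers of 2 of the 93 genes with a peak did not overlap, a share similar to the 2.25% of all genes with a peak. PDIA4, a disulfide isomerase of the endoplasmic reticulum, had 3 peaks in every control and 4 in every knockdown library. DNAJC3, which restrains the kinase PERK and assists HSPA5, had 2 in every control and 1 in every knockdown library. Both reached the smallest exact permutation p of 0.1, with an adjusted permutation p of 1 over all genes. The list as a whole held 154, 169 and 155 peaks in controls and 200, 153 and 156 in knockdown libraries. Knockdown replicate 1, the longest list, was alone above the controls, and the means of 159 ± 8.39 and 170 ± 26.3 (SD, n = 3 each) differed by 10.3 with an exact permutation p = 0.8. Without that library the difference was -4.83.

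The highest percentiles did not overlap between groups in 7 of the 56 genes with a peak in all 6 libraries, beside 9.39% of all such genes. AHSA1, CDC37, NUDC, HSPH1, PFDN2, CALR, CANX, PDIA4, P4HB and HSF2BP had their highest peak at the tied score 3100 in every library. Such genes could not have been called by percentile, and both the 56 and the background include them. Of the 7 genes, 5 were higher in knockdown libraries. HSPB6, a small heat shock protein, stood at 8.86, 54.2 and 46.1 in controls and 63.3, 71.9 and 69.7 in knockdown libraries, a difference of means of 31.9 points. PTGES3, the Hsp90 co-chaperone p23, stood at 63.1, 69.9 and 61.0 against 92.7, 94.0 and 86.8, a difference of 26.5. The testis-enriched Hsp70 gene HSPA2 stood at 74.1, 59.8 and 76.7 against 92.7, 80.5 and 93.2, a difference of 18.6. In all 5 genes higher in knockdown libraries the lowest knockdown library lay above the highest control, by the rule that picked them. PPP5C, a phosphatase that Hsp90 recruits, stood at 61.7, 79.0 and 80.6 against 92.7, 87.7 and 93.2, a difference of 17.4. The fifth, HSPA12A, stood at 82.4, 88.5 and 79.1 against 92.7, 94.0 and 93.2. In knockdown replicates 1, 2 and 3, percentiles of 92.7, 94.0 and 93.2 are those of the tied score 3100. The other 2 were Hsp40 genes and lower in knockdown libraries. DNAJC2, a ribosome-bound Hsp40, stood at 73.9, 68.0 and 68.1 against 55.7, 30.9 and 59.3, a difference of -21.4. DNAJA1, a main cytosolic partner of HSPA8, stood at 84.2, 85.2 and 79.8 against 77.6, 54.8 and 62.4, a difference of -18.1. Each of the 7 reached the smallest exact permutation p of 0.1, with an adjusted permutation p of 0.671 over all genes.

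**Figure D4:**
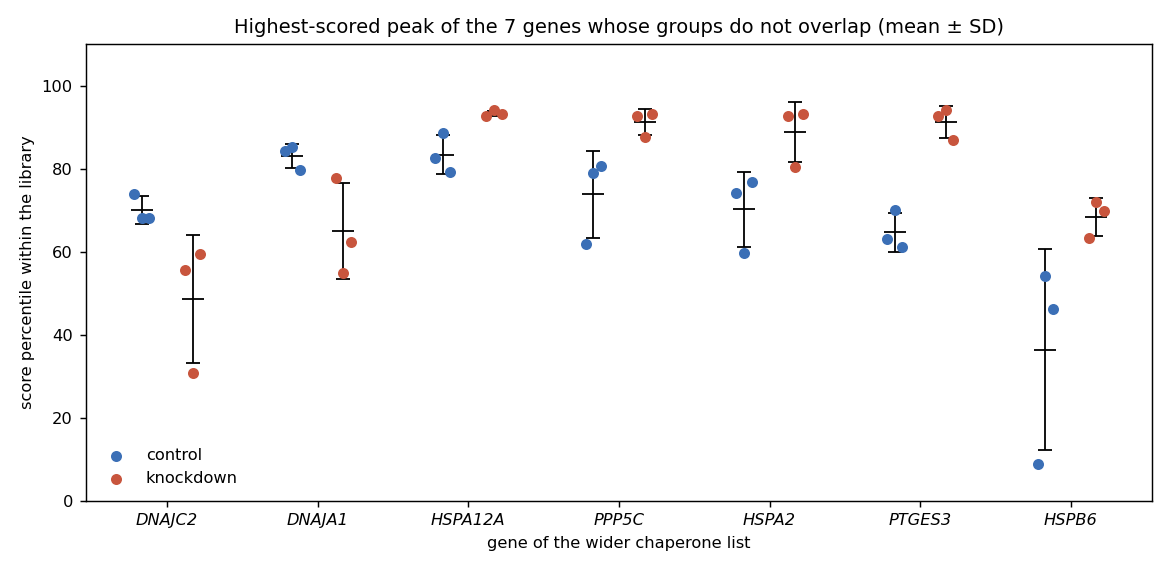
Percentile within the library (y axis, 0 to 100) of the highest-scored peak in the 7 genes of the wider list whose groups did not overlap, with 1 point per library (blue, control; red, knockdown) and the mean ± SD. DNAJC2 and DNAJA1 are lower and the other 5 higher in knockdown libraries, and HSPB6 has the widest control spread, from 8.86 to 54.2.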

How the data were processed

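Ac4C peaks were taken from 6 deposited lists, 1 per immunoprecipitated library (3 shControl, 3 shNAT10). The authors deposited for each peak a position on GRCh38 (build from the submitters' processing notes), a strand and a score. Peak names had the form that MACS writes. The aligner, caller settings and score scale were not given in the sources used here, so scores were used only as ranks within a library. Gene spans, RefSeq starts and promoter sequences came from RefSeq GRCh38.p14 tables, and all 10 genes matched by symbol. Of 112 symbols written for the wider list, 108 matched. Genes without a strand in the tables took peaks of either strand. Peaks of one strand that overlapped by at least 1 base in any library were merged into places. Groups were compared with two-sided exact permutation tests over libraries (20 splits) and Fisher's exact test, with Benjamini-Hochberg adjustment over all genes or places, in Python 3.11.15 with pandas 2.3.3 and scipy 1.17.1. The code was tested on simulated lists. The members, the wider list and the tests were chosen with earlier results of these data known. Named genes of the wider list were the 2 with the most peaks in each class, with ties, and those whose groups did not overlap. The alternatives were the top 50% of each list by score, equal list lengths, any overlap, either strand, genes that share no peak, pairing by replicate number and leaving out each library. Pairs of libraries shared 46.0% to 71.5% of identical coordinates, so none was the same list. Replicate numbers were not read as pairs: the correlation of deviations between libraries of one number was 0.0295, 0.00234 and 0.0318. A marker gene of other cell types is not reported here.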

Additional observations from a re-analysis of the deposited data

How the results depend on the processing

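Of 348 alternative values, 331 kept their direction and side of the threshold, 7 reversed and 10 moved, and none had an exact p under 0.05, which 3 against 3 libraries cannot reach. Many of the 331 could not have changed. HSP90AA1, HSPA9 and HSF1 had the same peak number and covered length in every library, so leaving out 1 library could not alter the difference. Their percentiles were also counted both by gene and by place. The 331 is therefore not a measure of stability. Leaving out 1 library at a time, the difference in peak number of the wider list ran from -4.83 to 18.7, negative without knockdown replicate 1. The highest percentile and the 5′ percentile of HSPA1A ran from -18.5 to 1.37, positive without control replicate 2. The highest percentile of HSPA1B ran from -0.878 to 13.1, negative without control replicate 2, and its covered length from -199 to 73.5 bases, positive without control replicate 2 (73.5) and without control replicate 3 (41.5). With the top 50% of each list by score, that length differed by 172 bases, and HSP90AA1 was listed in 0 control and 2 knockdown libraries (exact p = 0.4). The number of chaperone places found in one group ran from 0 to 1, being 1 (the downstream place of HSPA5) without knockdown replicate 1. It was also 1 for a difference of at least 2 libraries. The share of all places at these looser settings is not given here, so these counts have no background to be read against. The chaperone share of peaks ran from 0.000503 to 0.00933 points when 1 library was left out, and the chaperone peak number from 0.667 to 1.33. With the replicate block (paired by number, exact sign flips, smallest p 0.25), the chaperone peak number differed by 1 (exact p = 0.5) and the share of peaks by 0.00392 points (exact p = 0.75), and the block changed no other call. The cause of these changes was not tested, beyond the libraries left out. Any overlap added a peak of the opposite strand at the end of HSF1, for which the tables gave no strand. Depth was unknown, so a place not listed has no upper limit.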
